A study of Mus musculus with 9 samples.

Results

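The genes described here are 10 of the amino acid response controlled by the transcription factor ATF4: Atf4, Atf5, Ddit3, Trib3, Chac1, Asns, Psat1, Phgdh, Mthfd2 and Slc7a11. They were taken by symbol from the probe sets whose platform annotation gives 1 gene symbol, and all 10 of 10 were found, each by 1 probe set, among 19938 genes tested. RNA of 9 independent preparations was hybridised to Affymetrix Mouse Gene 1.0 ST arrays, 1 array each. The 4 SKP arrays (replicates 3, 4, 5 and 6) hold skin-derived precursor cells, which are grown in culture from dissociated skin and were collected as spherical colonies at primary passage. The 5 sorted arrays (replicates 2, 16, 17, 18 and 20) hold cells that were taken without culture from the skin of Sox2:EGFP mice and sorted into RNAlater as EGFP-positive and CD34-negative. EGFP is a reporter of Sox2 in these mice. All preparations came from back skin at postnatal day 4, and the strain of the mice used for SKPs is not given in the labels. Culture, sorting and cell choice differ together between the groups, so that their effects cannot be told apart.

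When amino acids run short or unfolded protein builds up, kinases such as GCN2 and PERK phosphorylate the initiation factor eIF2. General translation falls, while the Atf4 mRNA is translated more, so that ATF4 is regulated to a large part above the level of its mRNA. ATF4 then raises genes that make, import and recycle amino acids, together with regulators that limit or end the response. The same enzymes supply serine, glycine and one-carbon units to growing cells, and cells in culture rely on cystine import for glutathione.

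ATF4 binds, often with C/EBP partners, to composite sites with the core TTNCATCA, where N is any base. Promoters were searched to show where these letters lie in the genes described next, over 250 bases before to 50 after each RefSeq gene start (GRCm38.p6) on both strands. Of the 10 genes, which have 12 such promoters, 4 held a match (Asns, Chac1, Slc7a11 and Trib3), against 3.97% of all 32851 promoters and 4.51% of all genes with one. Capitals mark the 8 bases of each match. Chac1 carries it on its own strand from position -193 and Asns on the opposite strand from position -23, counted from the gene start. Slc7a11 carries it in both orientations, from -66 and -47, and Trib3 from position 15 after its start.
Chac1 (chr2:119350992-119351136, plus strand): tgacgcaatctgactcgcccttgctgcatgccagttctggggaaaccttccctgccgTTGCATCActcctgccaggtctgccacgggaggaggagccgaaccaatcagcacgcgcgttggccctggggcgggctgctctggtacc
Slc7a11 (chr3:50443614-50443759, minus strand): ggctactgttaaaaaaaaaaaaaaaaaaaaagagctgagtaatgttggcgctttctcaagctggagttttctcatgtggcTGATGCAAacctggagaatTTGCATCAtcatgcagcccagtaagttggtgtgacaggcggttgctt
Asns (chr6:7693210-7693312, minus strand): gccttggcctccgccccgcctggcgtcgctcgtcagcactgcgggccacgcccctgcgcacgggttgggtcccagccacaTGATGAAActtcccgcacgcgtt
Trib3 (chr2:152344028-152344057, minus strand): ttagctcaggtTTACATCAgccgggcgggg
The stricter letters TTGCATCA, part of the same pattern, were in Chac1 and Slc7a11 and in 0.895% of promoters. TGATGCAAT, which can overlap them, and the cAMP response element TGACGTCA were in 0 of the 12, against 0.192% and 1.79% of all promoters. The looser TTNNNTCA, which contains the first pattern, was in 7 genes and in 44.1% of promoters. A match describes letters in this window and is no evidence of binding.

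The values are log2 RMA levels, in which 1 unit is a factor of 2. Whether low values exceed background is not known. The difference was fitted with limma for SKPs minus sorted cells, and genes were called at an adjusted p under 0.05 over all 19938 genes. The array medians over these genes lay between 7.15 and 7.30. On the second principal component sorted replicates 2 and 20 lay at -32.7 and -53.3, away from sorted replicates 16, 17 and 18 at 19.1 to 27.8. Of the sorting genes, Sox2 was at 5.78 to 6.41 in SKPs and 8.24 to 9.25 in sorted cells. Cd34, against which the cells were sorted, was at 11.14 to 11.62 in SKPs, against 10.19 (replicate 2), 7.82 (16), 7.59 (17), 7.31 (18) and 10.27 (20) in sorted cells. In bulk RNA fewer cells of a type and less RNA per cell cannot be told apart.

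All 10 genes were called higher in SKPs, a call made for 20.2% of all genes tested, and a further 16.9% were called lower. Of the 10, 7 were higher by at least 2-fold, as were 5.46% of all genes. Their median log2 fold change was 1.39, against 0.07 over all genes. The 4 SKP arrays lay above all 5 sorted arrays in each of the 10 genes, as they did in 18.5% of all genes, although Phgdh was separated by only 0.003 log2 units. The largest difference was that of the cystine transporter gene Slc7a11, 77th by fold change among all genes, and the smallest that of Atf4 itself.

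**Figure D1:**
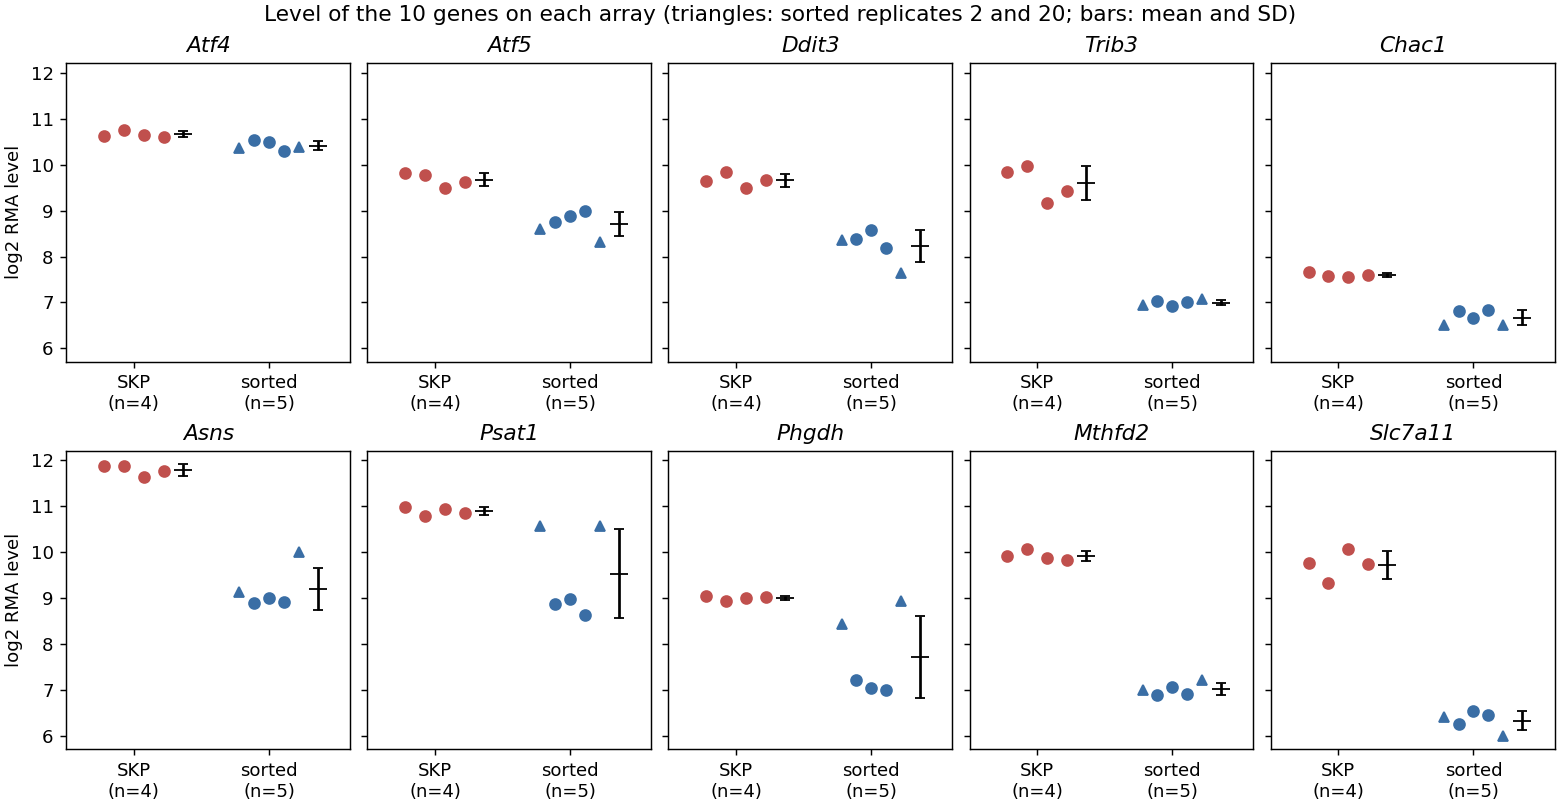
The log2 RMA level of each of the 10 genes (vertical axis) on the 4 SKP arrays (red, left) and the 5 sorted arrays (blue, right), 1 point per array, with mean and SD beside each group. The SKP points lie above the sorted points in each panel, by little in Atf4 and by more than 2 log2 units in Trib3, Mthfd2 and Slc7a11, and sorted replicates 2 and 20 (triangles) come near the SKPs in Psat1 and Phgdh.

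Of the transcription factors, Atf4 differed least. Atf4 was at 10.62, 10.76, 10.65 and 10.61 in SKPs, against 10.36, 10.52, 10.50, 10.29 and 10.38 in sorted cells (replicates in the order given above). The groups did not overlap but lay within 0.46 log2 units of each other from the lowest to the highest array. The fold change was 1.19 (log2 0.25 ± 0.08 SE, limma adjusted p = 0.0263), with a 95% confidence interval of 0.08 to 0.42 on the log2 scale. The call was lost without SKP replicate 4 (adjusted p = 0.0757), without sorted replicate 18 (0.0631), without sorted replicates 2 and 20 together (0.0533) and after quantile normalization (0.116). For 8 of the other 9 genes the whole interval lay above that of Atf4, the exception being Phgdh, which begins at 0.41.

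Atf5, a related factor that is also translated under stress, was at 9.82, 9.76, 9.50 and 9.62 in SKPs, against 8.60, 8.76, 8.88, 8.99 and 8.31 in sorted cells. Its fold change was 1.95 (log2 0.97 ± 0.14 SE, limma adjusted p = 3.76e-04). Ddit3, which encodes the stress factor CHOP, was at 9.65, 9.83, 9.48 and 9.66 in SKPs, against 8.36, 8.38, 8.58, 8.19 and 7.65 in sorted cells. Ddit3 was thus higher on every SKP array, with the lowest level on sorted replicate 20. Its fold change was 2.68 (log2 1.42 ± 0.17 SE, limma adjusted p = 1.14e-04).

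Trib3 and Chac1 are targets that act as regulators. Trib3, a pseudokinase that binds ATF4 and damps the response, was at 9.84, 9.97, 9.16 and 9.42 in SKPs, against 6.94, 7.04, 6.93, 7.02 and 7.07 in sorted cells. The sorted arrays were tightly grouped, with an SD of 0.06, and the SKP arrays were spread over a wider range, with an SD of 0.37 and the lowest level on replicate 5. The fold change was 6.07 (log2 2.60 ± 0.15 SE, limma adjusted p = 1.05e-06). Chac1, an enzyme that degrades glutathione, was at 7.67, 7.57, 7.56 and 7.60 in SKPs, against 6.52, 6.81, 6.67, 6.85 and 6.52 in sorted cells. It was 1.90-fold higher (log2 0.93 ± 0.09 SE, limma adjusted p = 3.17e-05), and its 4 SKP arrays lay within a narrow range, with an SD of 0.05.

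Among the enzymes, Asns and Mthfd2 had large and separate differences. Asns, which makes asparagine from aspartate and glutamine, was at 11.88, 11.88, 11.62 and 11.76 in SKPs, against 9.14, 8.90, 9.01, 8.92 and 10.0005 in sorted cells. Sorted replicate 20 stood above the other 4 sorted arrays, but still 1.62 log2 units below the lowest SKP array. The fold change was 6.04 (log2 2.59 ± 0.21 SE, limma adjusted p = 8.88e-06). Mthfd2, a mitochondrial enzyme of the folate cycle, was at 9.93, 10.07, 9.87 and 9.82 in SKPs, against 6.99, 6.90, 7.06, 6.91 and 7.21 in sorted cells. The groups were 2.61 log2 units apart at their nearest arrays, with a fold change of 7.50 (log2 2.91 ± 0.09 SE) and the smallest adjusted p of the 10 genes (limma, 2.04e-08).

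Phgdh and Psat1 encode successive enzymes of serine synthesis from the glycolytic intermediate 3-phosphoglycerate. Phgdh was at 9.05, 8.937, 8.99 and 9.02 in SKPs, against 8.43, 7.21, 7.06, 7.002 and 8.935 in sorted cells. Psat1 was at 10.98, 10.80, 10.93 and 10.86 in SKPs, against 10.58, 8.87, 8.98, 8.63 and 10.58 in sorted cells. In both genes sorted replicates 2 and 20 were far above sorted replicates 16, 17 and 18 and close to the SKP arrays. Phgdh was 2.42-fold higher in SKPs (log2 1.27 ± 0.39 SE, limma adjusted p = 0.0256) and Psat1 2.58-fold (log2 1.36 ± 0.42 SE, adjusted p = 0.0266). Both calls were lost on leaving out any 1 of SKP replicates 3, 4, 5 or 6 or of sorted replicates 16, 17 or 18, with adjusted p of 0.0533 to 0.0630 for Phgdh and 0.0535 to 0.0667 for Psat1. With sorted replicates 2 and 20 left out, Phgdh was 3.76-fold higher (log2 1.91, limma adjusted p = 2.70e-07) and Psat1 4.18-fold (log2 2.06, adjusted p = 6.98e-07). Those 2 arrays lie nearest the SKPs in both genes, so leaving them out raises the fold and narrows the sorted spread by construction. These p-values are therefore no separate support. In that setting 9 of the 10 genes were higher, as were 25.4% of all genes.

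Slc7a11 encodes the xCT subunit of the exchanger that imports cystine for glutamate, and its promoter window above holds the searched letters in both orientations. It was at 9.76, 9.32, 10.06 and 9.73 in SKPs, against 6.41, 6.26, 6.55, 6.45 and 6.01 in sorted cells. The sorted levels lay about where the lowest-expressed 33.3% of genes by mean level end (log2 6.31), so that the fold is approximate. It was 10.4-fold higher in SKPs (log2 3.38 ± 0.16 SE, limma adjusted p = 2.24e-07). NRF2 also drives this gene, so it is not specific to ATF4.

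**Figure D2:**
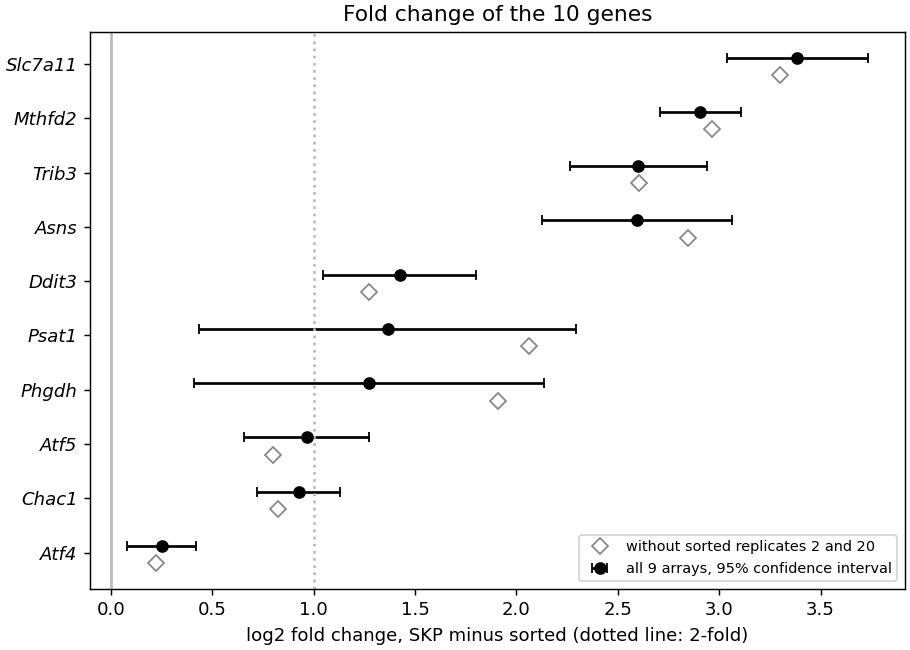
The log2 fold change of SKPs minus sorted cells (horizontal axis) for the 10 genes, sorted by size, from all 9 arrays with its 95% confidence interval (filled circles) and without sorted replicates 2 and 20 (open diamonds, no interval drawn). The intervals run from 0.08 at the lower end for Atf4 to 3.73 at the upper end for Slc7a11, and the diamonds move furthest to the right in Psat1 and Phgdh.

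The spread within groups differed among the 10 genes. Over the 4 SKP arrays the SD lay between 0.05 (Phgdh) and 0.37 (Trib3), with a median of 0.115. Over the 5 sorted arrays it lay between 0.06 (Trib3) and 0.97 (Psat1), with a median of 0.24. Sorted replicate 20 was the highest sorted array for 4 of the 10 genes, was level with replicate 2 as the highest for Psat1, and was the lowest for 3. The sorted array with the highest level was thus not the same throughout: replicates 2 and 20 were raised in serine synthesis, whereas Atf5, Ddit3 and Slc7a11 were lowest on replicate 20.

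Marker levels of other cells moved with the same arrays. For 7 measured markers of dividing cells the mean log2 level was 9.37 to 9.71 in SKPs, 9.94 on sorted replicate 2, 10.13 on replicate 20 and 8.25 to 8.58 on sorted replicates 16, 17 and 18. By limma 0 of the 7 were called between the groups, against 20.2% of all genes higher and 16.9% lower. Of the 7, 1 had an unadjusted p under 0.05, and 0 were called by an unequal-variance test. Once sorted replicates 2 and 20 were left out, 6 of 7 were higher in SKPs, against 25.4% of all genes. The mean of these markers was highest on those arrays, so leaving them out raises the fold by construction. This count is therefore no separate support. The most abundant marker, the replication clamp gene Pcna, had a log2 fold change of 0.45 (limma adjusted p = 0.245) with all arrays. Levels of dividing cell markers thus placed sorted replicates 2 and 20 above the other 3, as Psat1 and Phgdh did. The marker means on these 2 arrays lay above every SKP array, although not each single marker did. Psat1 and Phgdh on these 2 arrays lay below every SKP array. The summed levels of keratinocyte and papilla markers, described next, also separated these arrays, although not each gene did. The part of dividing cells in the serine synthesis values was not tested.

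Epidermal keratinocyte markers were lower in SKPs in 12 of 12 genes and dermal papilla markers in 10 of 10, against 16.9% of all genes. The log2 of the summed keratinocyte level was 10.14 to 10.46 in SKPs, 14.29 on sorted replicate 2 and 15.75 on replicate 20, whereas sorted replicates 16, 17 and 18 had 13.47 to 13.65. That of the papilla markers was 10.09 to 10.21 in SKPs, 13.95 on sorted replicate 2 and 13.48 on replicate 20, whereas sorted replicates 16, 17 and 18 had 15.30 to 15.50. Dsc3, of the desmosomes that join keratinocytes, was 29.0-fold lower in SKPs (limma adjusted p = 1.23e-06), and Dsp, of the same junctions, 27.8-fold (adjusted p = 5.38e-07). Dsc3 was at 5.85 to 6.16 on the SKP arrays, about the lowest 33.3% of genes, and Dsp was at 6.33 to 7.27 there. Dsp was at 11.01 on sorted replicate 2, below replicates 16, 17 and 18 (11.18 to 11.41), and at 12.14 on replicate 20. Lepr and Wif1, papilla genes of a leptin receptor and a Wnt inhibitor, were 84.7-fold and 64.7-fold lower (adjusted p = 1.36e-05 and 3.42e-06), with Lepr in SKPs at 4.23 to 5.07. With sorted replicates 2 and 20 left out these folds were 157 for Lepr and 102 for Wif1. Those arrays have the lowest sorted levels of both genes, so leaving them out raises the folds by construction.

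Myeloid markers were higher in SKPs in 9 of 10 genes by limma (20.2% of all genes), and in 4 of 10 by the unequal-variance test (16.6% of all genes). The log2 of their summed level was 11.72, 10.94, 12.88 and 12.20 on SKP replicates 3, 4, 5 and 6, against 9.43 to 9.86 in sorted cells. Lyz2, lysozyme of macrophages, was 24.3-fold higher (limma adjusted p = 3.32e-05) and the complement gene C1qc 4.23-fold (adjusted p = 0.00158), both highest on SKP replicate 5 and lowest on replicate 4. The call of C1qc was lost under the unequal-variance test (adjusted p = 0.0505). Slc7a11 was highest and lowest on the same 2 SKP arrays, at 10.06 and 9.32, whereas Trib3 was lowest on replicate 5 and highest on replicate 4. Atf5, Ddit3, Chac1 and Asns were also lowest on SKP replicate 5. Psat1 and Phgdh were lowest on SKP replicate 4, and Atf4 and Mthfd2 on SKP replicate 6. The part of myeloid cells in these values was not tested.

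**Figure D3:**
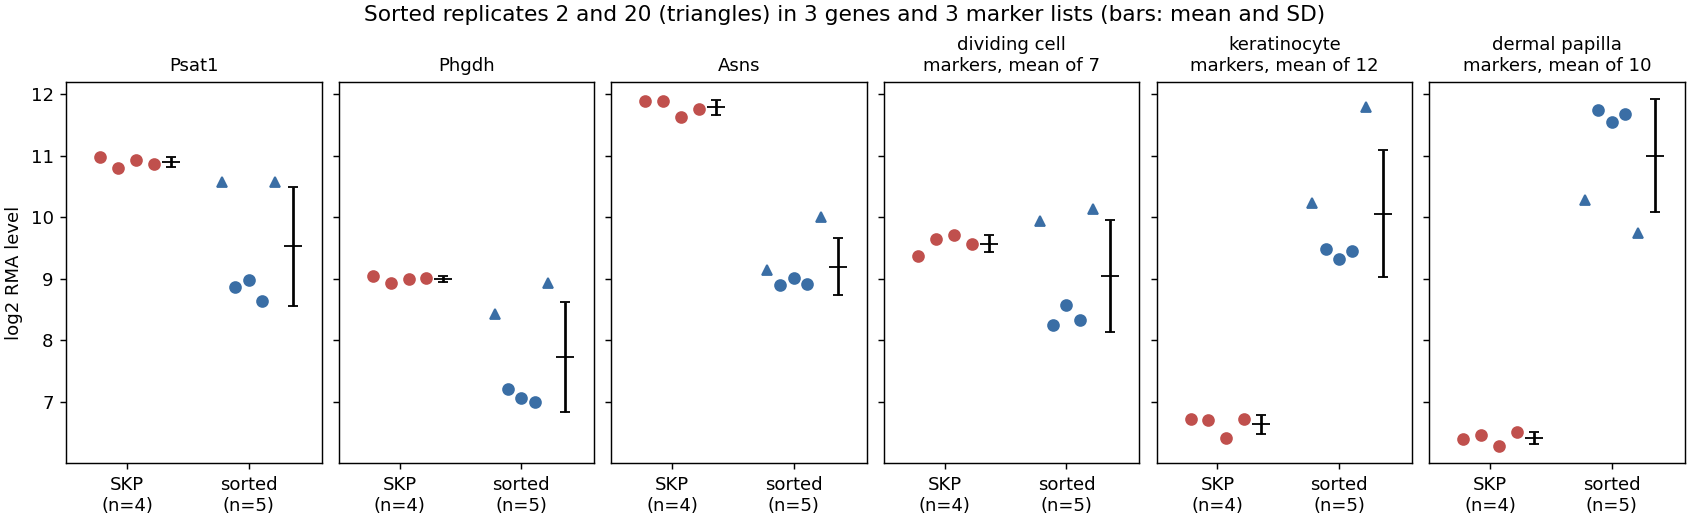
The log2 RMA level (vertical axis) of Psat1, Phgdh and Asns and the mean log2 level of 3 marker lists on the 4 SKP arrays (red, left) and 5 sorted arrays (blue, right), with mean and SD beside each group. Sorted replicates 2 and 20 (triangles) are above the other 3 sorted arrays in Psat1, Phgdh and in the dividing cell and keratinocyte markers, and below them in the dermal papilla markers.

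Of 18 other measured targets of ATF4 and of the eIF2 stress pathway, SKPs had 9 at higher and 2 at lower levels. Of all genes 20.2% were higher and 16.9% lower. The remaining 7 of the 18 were not called, and the median log2 fold change of the list was 0.88. All 9 at higher levels were so by at least 2-fold, a difference called in 5.46% of all genes. Aldh1l2, a mitochondrial folate enzyme that works beside Mthfd2, was at 9.51 to 10.27 in SKPs, against 6.29 to 7.72 in sorted cells, an 8.06-fold difference (limma adjusted p = 5.27e-05). Its lowest sorted levels are about those of Slc7a11, so this fold is approximate. Cth, which makes cysteine by transsulfuration, was 4.78-fold higher (adjusted p = 5.09e-06). The groups did not overlap in either gene.

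Atf3 and Ppp1r15a went the other way. Atf3, a factor induced by many stresses, was at 7.54, 7.47, 7.67 and 7.81 in SKPs, against 11.47, 11.04, 10.94, 10.81 and 11.63 in sorted cells. It was 11.8-fold lower in SKPs (log2 -3.56 ± 0.17 SE, limma adjusted p = 3.25e-07). Ppp1r15a, which encodes the GADD34 subunit that directs dephosphorylation of eIF2, was at 7.78 to 8.17 in SKPs, against 8.86 to 9.69 in sorted cells, and 2.56-fold lower (adjusted p = 1.24e-04). Both moved opposite to Ddit3 and Trib3, which are targets of the same pathway.

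Immediate early genes, which respond within minutes to stimuli including tissue dissociation, were mostly lower in SKPs than in sorted cells. Of 8 genes 7 were lower in SKPs, as were 16.9% of all genes, with a median log2 fold change of -1.72 for the 8. Fos was at 7.48 to 7.78 in SKPs, against 11.80 to 12.54 in sorted cells (22.5-fold lower, limma adjusted p = 4.40e-08), and Fosb was 19.5-fold lower (adjusted p = 1.42e-06). The log2 of the summed level of the 8 genes was 11.96 to 12.51 in SKPs and 13.99 to 14.55 in sorted cells, with no overlap. Their part in the Atf3 and Ppp1r15a values was not tested.

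Amino acid transporters moved in both directions. SKPs had higher levels of 7 and lower levels of 2 of the 13 genes, with a median log2 fold change of 0.41. Of all genes 20.2% were higher and 16.9% lower. Slc7a3, a cationic amino acid transporter, was at 9.55, 9.33, 9.10 and 8.98 in SKPs, against 6.43, 6.18, 6.09, 6.27 and 6.13 in sorted cells, 8.11-fold higher (limma adjusted p = 1.05e-07). Its sorted levels are as low as those of Slc7a11, so this fold is approximate too. Slc7a5, the LAT1 carrier of large neutral amino acids, was 2.50-fold higher (adjusted p = 7.05e-04). Slc7a2, a related cationic transporter, was 2.60-fold lower (adjusted p = 5.57e-06), at 7.72 to 7.93 in SKPs, against 8.87 to 9.32 in sorted cells. Slc38a2, the SNAT2 transporter that amino acid shortage is known to induce, was 1.33-fold lower (adjusted p = 0.00922).

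Among enzymes of serine, glycine and one-carbon metabolism outside the 10 genes, 3 of 9 measured were higher in SKPs and 1 was lower. Of all genes 20.2% were higher and 16.9% lower. The median log2 fold change of the 9 was 0.45. Shmt2, which passes the one-carbon unit of serine to mitochondrial folate, was at 9.80 to 9.96 in SKPs, against 8.14 to 8.95 in sorted cells (2.85-fold higher, limma adjusted p = 4.58e-05). Mthfd1l, a further mitochondrial folate enzyme, was 1.46-fold higher (adjusted p = 0.00967). Amt, of the glycine cleavage system, was 1.81-fold lower (adjusted p = 0.0354), with groups that overlapped, at 6.54 to 6.89 in SKPs and 6.86 to 8.16 in sorted cells. The count of higher genes was 5 of 9 without sorted replicate 20, against 22.9% of all genes. It was 2 of 9 without any 1 of SKP replicates 3, 4, 5 or 6 or sorted replicates 16, 17 or 18, against 17.0% to 18.6%. The call of Amt was lost on leaving out any 1 of SKP replicates 3, 4, 5 or 6 or sorted replicates 16, 17 or 18.

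Of the 4 mRNAs of kinases that phosphorylate eIF2, 1 was called. Of 11 measured genes for kinases, a phosphatase subunit, exchange factor subunits and the GCN2 inhibitor Impact, 4 were higher and 1 lower in SKPs. Of all genes 20.2% were higher and 16.9% lower. The median log2 fold change of the 11 was 0.21. Eif2ak2, the interferon-induced kinase PKR, was at 10.26 to 10.55 in SKPs, against 7.90 to 8.39 in sorted cells (4.83-fold higher, limma adjusted p = 5.13e-07). The other kinase genes are named here after their values were seen. Eif2ak3 and Eif2ak4 encode PERK and GCN2, with a log2 fold change of 0.21 for the first (adjusted p = 0.106) and -0.06 for the second (adjusted p = 0.768). That of Eif2ak1 was 0.19 (adjusted p = 0.0791). Without sorted replicates 2 and 20, Eif2ak1 and Eif2ak3 were also called higher (log2 0.24 and 0.25, limma adjusted p = 0.0251 and 0.0463), and Eif2ak4 was not. Impact was 2.29-fold higher (adjusted p = 6.27e-05), and Ppp1r15b, the constitutive partner of the eIF2 phosphatase, 1.24-fold lower (adjusted p = 0.0104), a call lost when its 2 probe sets were averaged (log2 -0.08, adjusted p = 0.433). Only 2 of the 11 were higher on leaving out any 1 of SKP replicates 3, 4, 5 or 6 or sorted replicates 16, 17 or 18. That is about the share over all genes in those settings, 17.0% to 18.6%. Without sorted replicates 2 and 20, 7 of the 11 were higher, against 25.4% of all genes. Kinase activity is not measured by these arrays.

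Genes of the other branches of the unfolded protein response, run by IRE1 and ATF6, were higher in 13 of 15 cases and lower in 1. Of all genes 20.2% were higher and 16.9% lower. The median log2 fold change of the 15 was 0.90. Pdia4, a protein disulfide isomerase of the endoplasmic reticulum, was at 12.14 to 12.37 in SKPs, against 10.37 to 11.16 in sorted cells (2.86-fold higher, limma adjusted p = 1.01e-04). Hyou1, a chaperone, was 2.48-fold higher (adjusted p = 4.95e-06). The member called lower was Dnajb9, a target of spliced XBP1, at 8.93 to 9.15 in SKPs, against 9.38 to 9.67 in sorted cells (1.40-fold lower, adjusted p = 0.00146). The log2 fold change of Pdia4, 1.52, was the largest of the 15. It lay below those of Slc7a11, Mthfd2, Trib3 and Asns and above those of Ddit3, Psat1, Phgdh, Atf5, Chac1 and Atf4.

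**Figure D4:**
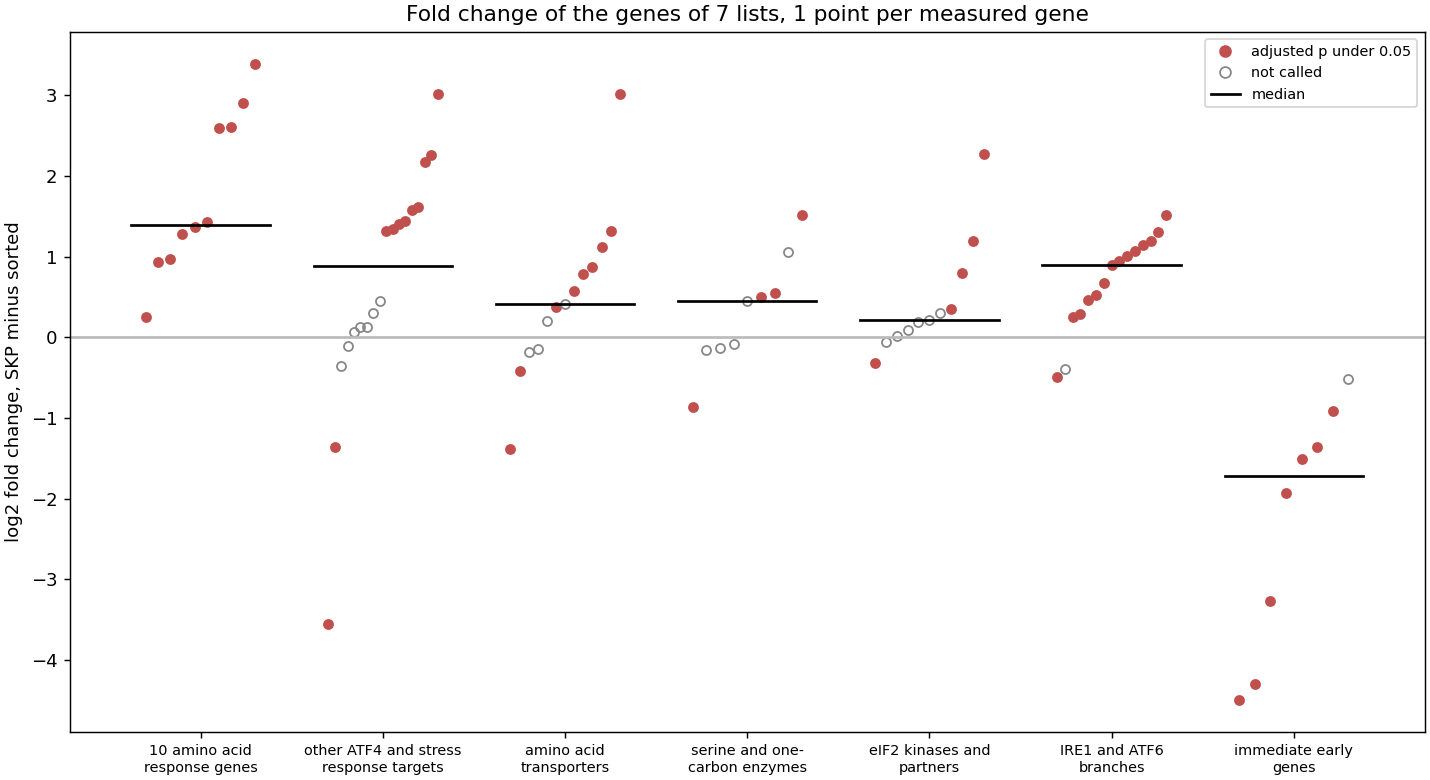
The log2 fold change of SKPs minus sorted cells (vertical axis) for each measured gene of the 10 amino acid response genes and 6 related lists, sorted by size within a list, with filled points for called genes and a bar at the median. The median is 1.39 for the 10 genes, 0.88 for the other ATF4 and stress response targets and -1.72 for the immediate early genes, and Atf3 is the lowest point of the second list at -3.56.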

How the data were processed

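RNA of 4 SKP and 5 sorted preparations was hybridised to 1 Affymetrix Mouse Gene 1.0 ST array each, grouped by sample title. The deposited values are log2 levels, 1 per probe set and array. RMA, Affymetrix Expression Console and limma are named per the submitters' processing notes, without versions or settings. RMA adjusts background, normalizes quantiles between arrays, which hides overall shifts in RNA content, and summarises probes. No detection p-values were used. Replicates are independent preparations, per the design text, and their number limits the precision.

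Of 35556 probe sets, 21789 had 1 gene symbol and were used, and 1621 with several symbols and those with none were not. For each of the resulting 19938 genes the probe set of highest mean level on the 9 arrays was taken. All 10 members have 1 such probe set, and their symbols matched RefSeq by Entrez identifier. Genome build and coordinates of probes are not given in the sources used here. Promoter sequences are those of RefSeq (GRCm38.p6), and 5 motifs were searched.

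SKPs minus sorted cells was tested two-sided with limma 3.58.1 (lmFit and eBayes) in R 4.3.3, with Benjamini-Hochberg adjustment over all 19938 genes and a threshold of 0.05. Python 3.11.15 with matplotlib 3.10.9 drew the figures. Members and gene lists were chosen with earlier results of these data known, so that the lists were described by counts and medians and not tested. The text names all 10 members and, of each other list, the 2 highest and 2 lowest called genes, or the brightest gene where none was called. Genes of the lists that lack a probe set with 1 symbol are not analysed here. On simulated data with 200 of 19938 genes changed, 52% of those changed by log2 0.585 were called, 68% at log2 1, 98% at log2 2 and 100% at log2 4, with 7 false calls. The simulation changed far fewer genes than were called in the data. It also drew independent noise with the same SD in both groups, so these rates need not hold for the data.

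Alternatives were quantile normalization, median centring, removal of the lowest 33.3% of genes, mean over probe sets or each probe set alone, weights per array, an unequal-variance test, a trended and robust eBayes step, a threshold of 0.01, and leaving out each array in turn or sorted replicates 2 and 20 together.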

Additional observations from a re-analysis of the deposited data

Results flagged for a closer look

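An array was singled out where its gap to the nearest other array of its group, divided by the group's range, passed Dixon's 95% critical value. Among 36 named genes in 2 groups, 6 of 72 cases did so. About 1 in 20 would pass among independent cases. These cases share the same arrays and many of the genes were picked by fold change, so no excess is shown. Sorted replicate 20 held 4 of them. On that array Asns was at 10.0005, against 8.90 to 9.14 on the other sorted arrays. The amino acid transporter Slc7a5 was at 10.17, against 9.20 to 9.41 there, and Slc7a2 was low at 8.87, against 9.20 to 9.32. The desmosomal gene Dsc3 was at 11.99, against 10.42 to 10.76. On sorted replicate 2 the immediate early gene Fosb was at 12.06, against 10.59 to 10.85. On SKP replicate 4 the desmosomal gene Dsp was at 7.27, against 6.33 to 6.45 on the other SKP arrays.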

How the results depend on the processing

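Over 19 alternatives none of the 10 genes changed direction, and Asns, Atf5, Chac1, Ddit3, Mthfd2, Slc7a11 and Trib3 kept their call in each. Some alternatives could not change a direction. Each of the 10 genes has 1 probe set, so both probe set settings keep its values. The threshold of 0.01 and the unequal-variance test keep the same fold change. Of the 10 genes, 7 to 10 were higher when 1 array was left out (17.0% to 22.9% of all genes), 9 after quantile normalization (21.1%), 9 without sorted replicates 2 and 20 (25.4%), 8 by the unequal-variance test (16.6%) and 7 at a threshold of 0.01 (13.9%). The log2 fold change of Atf4 lay between 0.17 and 0.32 (adjusted p 0.00843 to 0.116), that of Phgdh between 1.09 and 1.91 (2.70e-07 to 0.0878) and that of Psat1 between 1.14 and 2.06 (6.98e-07 to 0.0892). Over all genes 4020 were higher, 6145 with array weights, and 3396 to 4568 with 1 array left out, while 3366 were lower and 2841 to 3751 with 1 array left out. The share of calls that were higher was 54.4%, 53.6% after quantile normalization and 64.4% after median centring. The serine and one-carbon list had 2 to 5 of 9 genes higher over the alternatives, and the myeloid list 4 to 10 of 10. Over the same alternatives 13.9% to 30.8% of all genes were higher. The causes were not tested. No paired analysis was possible because the 2 groups share no replicate number. Low signal limits the folds of Slc7a11, Slc7a3, Lyz2 and C1qc, whose sorted levels may be at background. So may those of Aldh1l2 on sorted replicates 16, 17 and 18. The same holds for Dsc3, Dsp and Lepr, whose SKP levels may be at background.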
